A study of Mus musculus with 2 samples.

Results

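The 7 genes described here encode the MHC class II antigen presentation pathway of the mouse and were taken by symbol from the 32285 genes of the deposited gene lists: H2-Aa, H2-Ab1, H2-Eb1, Cd74, Ciita, H2-DMa and H2-DMb1. All 7 were found, each under 1 gene ID. Their levels were measured by single-nucleus RNA sequencing (snRNA-seq) of interscapular brown adipose tissue (BAT) in 1 WT and 1 KO library. The KO mice carried Adipoq-Cre and Srsf1 flox/flox, so that the splicing factor SRSF1 was targeted in adipocytes, the cells in which the adiponectin promoter is active. The WT mice were Srsf1 flox/flox littermates that lacked Cre, so both groups carried the floxed allele. All mice were 8 weeks old and, per the methods, male, and the Cre line was on C57BL/6J. How many mice went into each library is not given in the sources used here.

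MHC class II molecules display peptides from engulfed or membrane proteins to CD4+ T cells. H2-Aa and H2-Ab1 encode the alpha and beta chains of the I-A molecule, and H2-Eb1 encodes the beta chain of I-E. Cd74 encodes the invariant chain, which guides new class II molecules to endosomes, where cathepsins degrade it. H2-DMa and H2-DMb1 encode the H2-DM heterodimer, which exchanges the last invariant chain fragment for peptide. Ciita encodes the class II transactivator, which is recruited to the promoters of these genes by the RFX, CREB and NF-Y factors and without which they are hardly transcribed. Dendritic cells and B cells carry class II constitutively, macrophages carry it at levels that depend on their state, and interferon gamma can induce it in endothelial cells.

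The WT library held 12846 barcodes and 93102814 unique molecular identifiers (UMIs), and the KO library 11495 barcodes and 80090208 UMIs. After a filter on depth, detected genes and mitochondrial UMIs, 12771 WT and 11378 KO nuclei remained, with medians of 3428 and 4354.5 UMIs. The median mitochondrial share was 1.10% in WT and 0.0491% in KO, and 52 barcode sequences occurred in both libraries. A nucleus was given a class from the summed UMIs of fixed marker genes, none of them a class II gene, and each level below is the UMIs of a gene per 1000000 UMIs of all nuclei of that class (CPM). With 1 library per genotype there is no replicate error and no test, and intervals are exact 95% intervals that cover counting error only. Srsf1 itself stood at 183 CPM in WT and 61.1 CPM in KO adipocyte nuclei, and at 94.4 and 65.2 CPM in macrophage nuclei, so its level was lower in KO also outside the targeted cells. The floxed exons are not named in the sources used here, so these counts check the deletion only in part.

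Macrophage nuclei numbered 501 in WT, 3.92% of kept nuclei (3.59 to 4.27), and 2600 in KO, 22.9% (22.1 to 23.6). Dendritic nuclei numbered 25 in WT, 0.196% (0.127 to 0.289), and 157 in KO, 1.38% (1.17 to 1.61). Endothelial nuclei numbered 2693 in WT (21.1%) and 1229 in KO (10.8%). The endothelial list was detected with 11 of 11 markers, at 7779 CPM in WT and 8275 CPM in KO endothelial nuclei. All 12 macrophage markers were detected in the macrophage nuclei of both libraries, with a summed level of 5455 CPM in WT and 5636 CPM in KO. The same lists called the nuclei, so the level of a list in its own class does not check the label. Of the called macrophage nuclei, 81 in WT and 370 in KO lay within 0.05 of the score limit of 0.2. In dendritic nuclei 8 of 10 markers were detected in WT and 10 of 10 in KO. Wdfy4 made most of the dendritic list, at 3168 of 4121 CPM in WT and 4239 of 5890 CPM in KO. Flt3 stood at 292 and 458 CPM. Clec9a stood at 415 and 839 CPM and Xcr1 at 38.4 (5 UMIs) and 52.0 CPM, both genes of type 1 conventional dendritic cells. Cd209a, a gene of type 2 cells, had 2 and 6 UMIs, Ccr7 1 and 22, Siglech 0 and 14 and Ccl22 0 and 7. No class was given to 39.6% of WT and 27.2% of KO nuclei.

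Of the 7 genes, 5 lie in the MHC region of chromosome 17 (GRCm38, GENCODE vM21). H2-DMa spans 34119541 to 34139101 on the plus strand, H2-DMb1 34153072 to 34160230 on the plus strand and H2-Ab1 34257689 to 34269419 on the plus strand. H2-Aa follows at 34282744 to 34287823 on the minus strand, and H2-Eb1 at 34305867 to 34316674 on the plus strand. H2-DMa is the member with the most overlaps in the annotation. It overlaps 4 other gene models, of which Brd2, CR974462.4 and Gm20493 lie on the opposite strand and CR974462.3 on the same strand, and whether the counting used strand is not stated. H2-DMb1 has a close paralog, H2-DMb2, with which it could share reads. H2-Eb1 overlaps the opposite-strand model Gm20513.

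Since all 7 genes stood higher in KO macrophage nuclei, the upstream sequence of those with an entry in the RefSeq promoter table (GRCm38.p6, 250 bases before to 50 after the start) was examined. Windows were given for 4 of the 7 genes. H2-Aa, H2-Eb1 and H2-DMb1 each held, on the gene's strand, the letters TGANG followed 20 to 30 bases later, start to start, by ATTGG. These are the cores of the X2 box, where CREB factors bind, and of the Y box, where NF-Y binds, in textbook class II promoters. The printed stretches are chr17:34287859-34287913 (minus strand) for H2-Aa, chr17:34305768-34305820 (plus strand) for H2-Eb1 and chr17:34153105-34153134 (plus strand) for H2-DMb1, with both matches in capitals.
H2-Aa: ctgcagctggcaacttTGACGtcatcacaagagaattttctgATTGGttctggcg
H2-Eb1: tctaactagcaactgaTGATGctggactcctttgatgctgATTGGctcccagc
H2-DMb1: TGATGctaggctgattcactcagtgATTGG
The ATTGG match began 48, 59 and 61 bases before the start of H2-Aa, H2-Eb1 and H2-DMb1, with spacings of 26, 24 and 25 bases. H2-Eb1 and H2-DMb1 each held 2 pairs that meet the rule, of which 1 is shown. H2-Aa and H2-Eb1 lay outside annotated exons there, whereas the H2-DMb1 stretch overlapped 1 exon of the GENCODE model, which begins upstream of the RefSeq start. Neither of the 2 windows of H2-DMa held the pair. Among all 32851 windows, 1.61% held it on the gene's strand and 2.79% on either strand, while ATTGG alone, on either strand, was in 37.4% and TGANG alone in 89.4%. The 2 letter strings do not overlap each other at these spacings, and the pair was chosen after the sequences were seen. A match describes the letters and not a bound site.

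Ciita lies on chromosome 16 at 10480059 to 10528418 on the plus strand, where Dexi overlaps it on the opposite strand. Cd74 spans 60803848 to 60812652 on the plus strand of chromosome 18 and holds Mir5107.

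In macrophage nuclei, all 7 class II genes stood higher in KO than in WT. Summed over the 7 genes, the level was 220 CPM (202 to 239) in WT and 882 CPM (866 to 897) in KO, a 4.01-fold difference (log2 2.00, 1.88 to 2.13). At least 2-fold higher in KO were 6 of the 7 genes, against 5.81% of the 12250 genes with at least 50 UMIs in these nuclei, and the median log2 ratio was 1.93 for the 7 genes and -0.02 for all 12250. None of the 7 was at least 2-fold lower, against 11.7% of these genes.

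H2-Aa stood at 33.0 CPM (26.4 to 40.8) in WT and 139 CPM (133 to 145) in KO macrophage nuclei, a log2 ratio of 2.07 (1.76 to 2.40). H2-Ab1, its partner chain, stood at 18.7 CPM in WT and 68.9 CPM in KO, a log2 ratio of 1.89 (1.47 to 2.33). Both chains of I-A thus differed by similar ratios, with overlapping intervals. H2-Eb1 stood at 24.5 CPM (18.8 to 31.3) in WT and 158 CPM (151 to 164) in KO, a 6.45-fold difference and a log2 ratio of 2.69 (2.33 to 3.07). This was the widest ratio among the 7 genes in macrophage nuclei, and its interval lay above that of Cd74 but overlapped those of H2-Aa and H2-Ab1. Relative to the invariant chain, H2-Eb1 had 52.1 UMIs per 100 Cd74 UMIs in WT and 83.9 in KO, while H2-Aa had 70.2 and 73.8.

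Cd74 had 47.0 CPM (39.0 to 56.2) in WT and 188 CPM (181 to 195) in KO macrophage nuclei, a log2 ratio of 2.00 (1.74 to 2.27). For Ciita, the transactivator, the levels were 69.2 CPM (59.4 to 80.1) and 264 CPM (255 to 272), a log2 ratio of 1.93 (1.71 to 2.15). Ciita and Cd74 kept almost the same proportion, 147 Ciita UMIs per 100 Cd74 UMIs in WT and 140 in KO. The H2-DM chains had the lowest ratios, though only that of H2-DMa had an interval apart from those of H2-Aa, H2-Ab1, Cd74 and Ciita. H2-DMb1 stood at 14.0 CPM in WT and 42.5 CPM in KO (log2 1.60, 1.12 to 2.13), and H2-DMa at 13.6 CPM in WT and 21.8 CPM in KO (log2 0.68, 0.17 to 1.23). H2-DMa was the member under 2-fold, and its log2 ratio was 0.06 when levels were averaged over nuclei in place of summed.

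**Figure D1:**
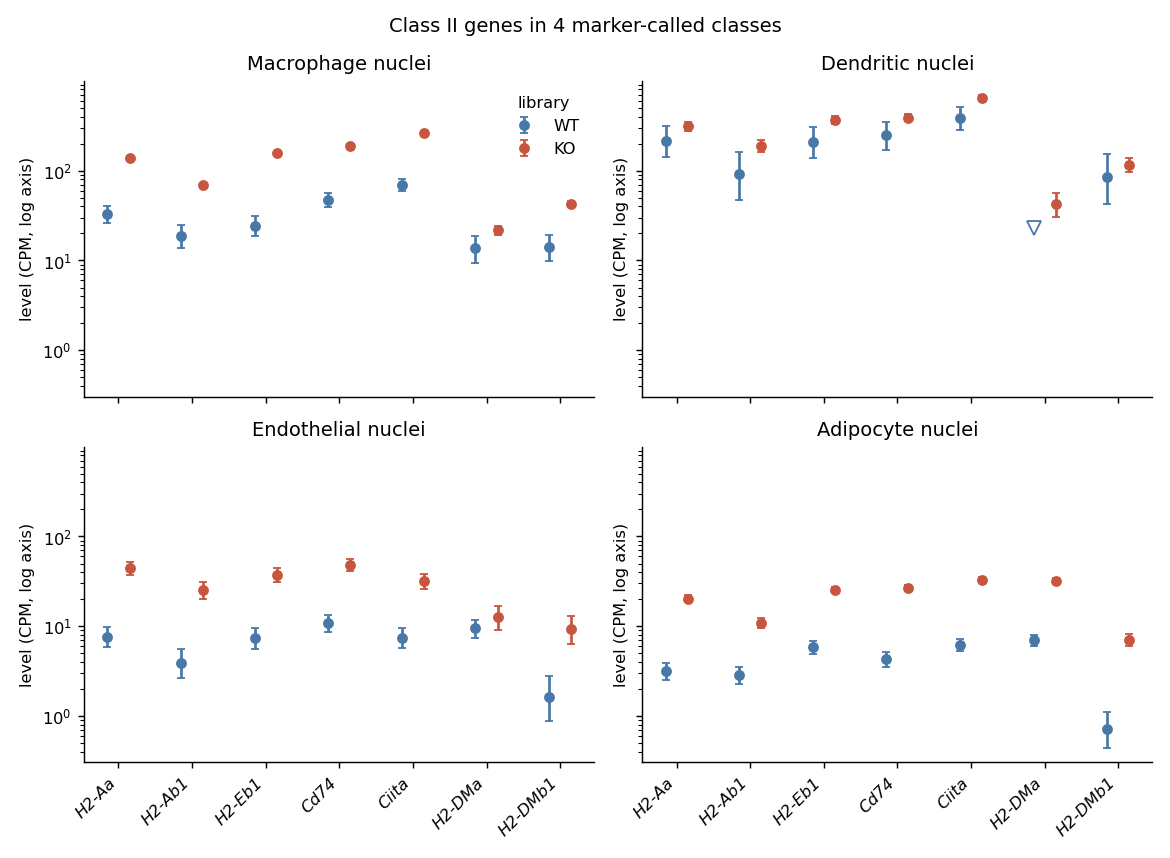
Level of each class II gene in the WT (blue) and KO (red) library, in CPM on a log axis, in macrophage, dendritic, endothelial and adipocyte nuclei. Points are summed levels, bars are exact 95% Poisson intervals, and the open triangle for H2-DMa in WT dendritic nuclei marks the level that 3 UMIs would give (23.1 CPM), since 0 were counted. The KO points lie above the WT points in each panel, and the gap for H2-DMa is narrow in macrophage (1.60-fold) and endothelial nuclei (1.32-fold).

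The difference was spread over many macrophage nuclei. At least 3 class II UMIs were found in 65 of 501 WT (10.2 to 16.2%) and 1289 of 2600 KO macrophage nuclei (49.6%, 47.6 to 51.5), and at least 10 in 2.40% and 16.3%. Median depths were close, 4367 UMIs in WT and 4219 in KO. With every nucleus thinned to 1000 UMIs, which left out 40 WT and 121 KO nuclei, 15.6% (12.4 to 19.3) of WT and 47.4% (45.4 to 49.3) of KO macrophage nuclei held a class II UMI, against 34.5% and 73.2% unthinned. Adipocyte nuclei, not a professional antigen-presenting type, gave 3.40% in WT and 11.0% in KO when thinned alike, from median depths of 6452 and 6648.5 UMIs. Thinned shares with Ciita were 4.99% in WT and 22.1% in KO macrophage nuclei, and 0.525% and 2.29% in adipocyte nuclei. The 10% of macrophage nuclei with the most class II UMIs carried 69.1% of them in WT and 42.2% in KO, and 26.8% of KO macrophage nuclei had none.

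**Figure D2:**
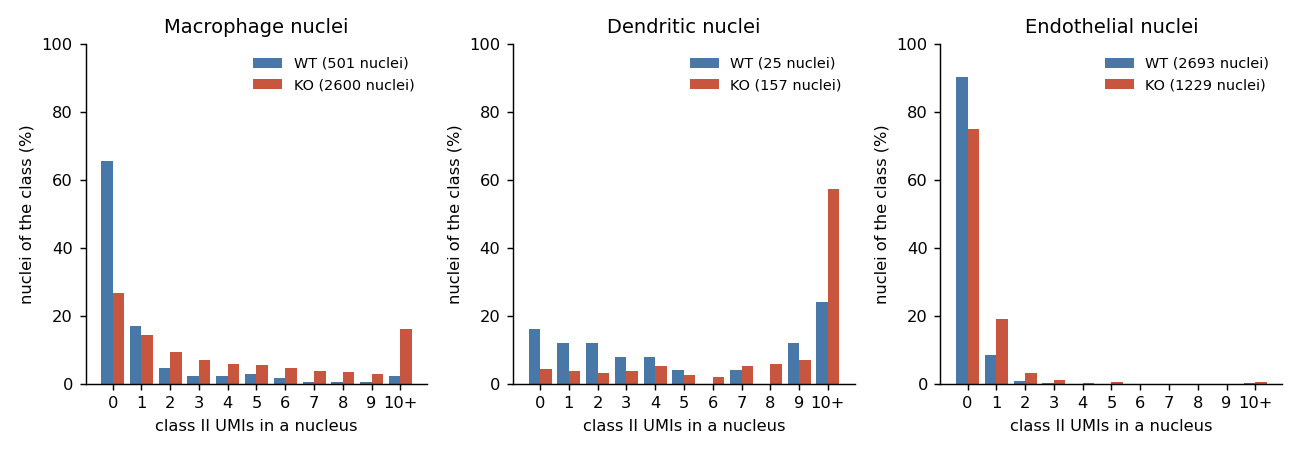
Share of nuclei (percent of the class, y axis from 0 to 100) by the number of class II UMIs counted in the nucleus (x axis, last bin 10 or more), for WT (blue) and KO (red) macrophage, dendritic and endothelial nuclei. Of the macrophage nuclei 65.5% in WT and 26.8% in KO had no class II UMI, while 57.3% of KO dendritic nuclei had 10 or more.

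Markers of other antigen-presenting cells were counted in the same macrophage nuclei. The summed dendritic list stood at 280 CPM in WT (7 of 10 markers detected) and 341 CPM in KO (10 of 10), of which Wdfy4 made 233 and 280 CPM. Flt3 had 0 UMIs in WT and 1.94 CPM in KO, and Batf3 7.77 and 34.2 CPM. The B cell list stood at 208 CPM (5 of 8) and 353 CPM (7 of 8), of which Bank1 made 188 and 319 CPM, while Ms4a1 had 1 and 0 UMIs. Both lists were thus higher in KO macrophage nuclei. Lists of other cells went both ways there. The endothelial list stood at 640 CPM in WT and 253 CPM in KO and the adipocyte list at 740 and 419 CPM. The list of adipose stem and progenitor cells stood at 157 and 234 CPM. The part of these lists in the macrophage result was not tested. Among KO macrophage nuclei, those with at least 3 class II UMIs carried the macrophage list at 5464 CPM and those with fewer at 5904 CPM.

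Within the macrophages, 2 marker lists separated nuclei with genes of tissue-resident macrophages (Lyve1, Cd163, F13a1, Folr2, Cbr2) from nuclei with the lipid-associated genes Atp6v0d2, Mmp12, Gpnmb, Trem2 and Spp1. The resident nuclei, 224 in WT and 734 in KO, had a class II sum of 203 CPM (180 to 228) in WT and 691 CPM (665 to 717) in KO, a log2 ratio of 1.77 (1.59 to 1.95). Nuclei on neither list, 269 and 1639, had 252 CPM (223 to 283) and 1014 CPM (993 to 1036), a log2 ratio of 2.01 (1.84 to 2.19). Both subsets therefore stood higher in KO by similar ratios, and the subset on neither list had the higher level in each library, though the WT intervals overlapped. The Atp6v0d2 and Mmp12 nuclei numbered 8 in WT and 227 in KO. None of the 8 WT nuclei had a class II UMI, where 3 UMIs, the limit used here for a count of 0, would give 56.1 CPM (exact upper bound 69.0 CPM), and the 227 KO nuclei stood at 640 CPM (602 to 679), an interval that overlapped that of the resident nuclei. By gene, H2-Eb1 in KO stood at 105 CPM in resident nuclei, 112 CPM in the Atp6v0d2 and Mmp12 nuclei and 190 CPM in nuclei on neither list, whereas Cd74 stood at 184, 133 and 200 CPM.

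Dendritic nuclei had the highest class II level of the 9 classes in both libraries. The sum was 1230 CPM (1047 to 1436) in WT and 2053 CPM (1967 to 2142) in KO, a 1.67-fold difference (log2 0.74, 0.51 to 0.98). At least 2-fold higher in KO was 1 of the 6 genes with at least 50 UMIs, against 16.3% of 4513 genes, and 0 were at least 2-fold lower, against 8.02%. The median log2 ratio was 0.70 for the 6 and 0.20 for all genes tested. With that median set to 0, the log2 ratio of the sum was 0.54 (0.30 to 0.78) and that of H2-Ab1 fell below 2-fold, at 0.83. The WT value rests on 160 UMIs in 25 nuclei.

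Among the chains, H2-Ab1 stood at 92.3 CPM (47.7 to 161) in WT and 189 CPM (163 to 217) in KO dendritic nuclei, a log2 ratio of 1.03 (0.19 to 2.01). H2-Eb1 stood at 208 and 368 CPM (log2 0.82, 0.26 to 1.45). H2-Aa stood at 215 CPM in WT and 312 CPM in KO, with an interval that included no difference (log2 0.53, -0.02 to 1.15). Cd74 had 246 and 390 CPM (log2 0.66, 0.14 to 1.23), and Ciita 384 and 637 CPM (log2 0.73, 0.31 to 1.17). For the H2-DM chains the counts were small: H2-DMb1 had 11 UMIs in WT and 120 in KO (log2 0.45, -0.44 to 1.49). H2-DMa had 0 in WT and 44 in KO (42.3 CPM), and the exact lower limit of its log2 ratio was 0.52. Set against 3 UMIs in WT, the KO level of H2-DMa would be 1.84-fold higher. Thinned to 1000 UMIs, 69.6% (47.1 to 86.8) of WT and 86.9% (80.5 to 91.8) of KO dendritic nuclei held a class II UMI, with overlapping intervals. The dendritic markers were also higher in KO, 4121 CPM in WT and 5890 CPM in KO. Lists of other cells went both ways. The adipocyte list stood at 1215 and 669 CPM and the endothelial list at 1061 and 334 CPM. The macrophage list stood at 438 and 944 CPM and that of adipose stem and progenitor cells at 131 and 342 CPM. Their part in the class II difference was not tested.

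Endothelial nuclei had a low level in WT and a higher one in KO. The sum was 48.3 CPM (43.6 to 53.4) in WT and 208 CPM (193 to 224) in KO, a log2 ratio of 2.10 (1.92 to 2.29). At least 2-fold higher in KO were 5 of the 6 genes with at least 50 UMIs, against 4.2% of 11623 genes, and 0 were at least 2-fold lower, against 14%. H2-DMa was the exception, with 9.47 CPM in WT and 12.5 CPM in KO (log2 0.40, -0.18 to 0.97), and H2-DMb1, with 44 UMIs in all, was below the limit (1.64 and 9.25 CPM).

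H2-Aa stood at 7.70 CPM in WT and 44.2 CPM in KO endothelial nuclei (log2 2.52, 2.08 to 2.97), H2-Ab1 at 3.91 and 25.1 CPM (2.68, 2.07 to 3.32) and H2-Eb1 at 7.32 and 37.0 CPM (2.34, 1.88 to 2.81). Cd74 stood at 10.9 and 48.0 CPM (2.15, 1.76 to 2.54) and Ciita at 7.45 and 31.6 CPM (2.09, 1.61 to 2.57). These are low counts: 263 of 2693 WT and 309 of 1229 KO endothelial nuclei held a class II UMI, of which 227 and 233 held only 1. At least 3 class II UMIs were found in 17 WT and 36 KO endothelial nuclei. One KO nucleus, with 53563 UMIs in all, held 184 of the 696 class II UMIs, and carried 299 UMIs of the endothelial, 125 of the macrophage and 5 of the dendritic markers. Without the nucleus with the most class II UMIs of each library, the endothelial sum stood at 46.0 CPM in WT and 155 CPM in KO, a log2 ratio of 1.75 (1.56 to 1.95). Without the deepest 10% of nuclei of each library the log2 ratio was 1.42 (1.18 to 1.66). The 36 KO nuclei carried the macrophage list at 1820 CPM, against 539 CPM in the other KO endothelial nuclei, and in WT the 2 values were 1050 and 435 CPM.

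The macrophage list as a whole, 12 of 12 markers detected in both libraries, stood at 455 CPM in WT and 657 CPM in KO endothelial nuclei. Mertk, which made 247 and 262 CPM of it, differed little, while Adgre1 stood at 26.5 and 71.3 CPM and Mrc1 at 68.9 and 151 CPM. The dendritic list stood at 56.5 and 69.2 CPM and the B cell list at 19.4 and 65.0 CPM. Their part in the endothelial result was not tested. Thinned to 1000 UMIs, 4.36% (3.59 to 5.24) of WT and 12.9% (11.0 to 15.0) of KO endothelial nuclei held a class II UMI, close to the 3.40% (2.80 to 4.08) and 11.0% (9.80 to 12.3) of adipocyte nuclei, whose intervals overlap them within each library. The intervals of the summed levels did not overlap, at 48.3 CPM (43.6 to 53.4) against 30.0 CPM (28.0 to 32.1) in WT and 208 CPM (193 to 224) against 155 CPM (150 to 161) in KO. Whether the class II UMIs of endothelial nuclei come from endothelial expression was not tested. With the adipocyte level of the same library subtracted, the endothelial sum had a log2 ratio of 1.51, and no ratio could be formed for Ciita and H2-DMa. Lymphatic endothelial nuclei, called by Prox1, Mmrn1, Reln, Ccl21a and Flt4, numbered 10 in WT and 2 in KO and had no class II UMI, where 3 UMIs would give 117 CPM in WT and 589 CPM in KO.

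Class II UMIs were also found outside antigen-presenting and endothelial nuclei, and at a higher level in KO in each of these classes. The sum in adipocyte nuclei was 30.0 CPM (28.0 to 32.1) in WT and 155 CPM (150 to 161) in KO, in mural nuclei 34.1 and 150 CPM, and in adipose stem and progenitor cell (ASPC) nuclei 24.9 and 153 CPM. In adipocyte nuclei 7 of 7 genes were at least 2-fold higher in KO, against 23% of 15180 genes, and 0 were at least 2-fold lower, against 15.4%. The median log2 ratio of all these genes was 0.15. Single genes ran from 0.722 CPM (H2-DMb1) to 7.00 CPM (H2-DMa) in WT and from 7.10 CPM (H2-DMb1) to 33.1 CPM (Ciita) in KO adipocyte nuclei. The macrophage list was also higher in KO, at 222 and 551 CPM in adipocyte, 320 and 535 CPM in mural and 299 and 506 CPM in ASPC nuclei, with 12 of 12 markers detected in each. Per 100 macrophage marker UMIs, the KO library had 28.2 class II UMIs in adipocyte, 28.0 in mural, 30.2 in ASPC and 31.6 in endothelial nuclei, and 15.6 in macrophage nuclei. In WT these values were 13.5, 10.7, 8.33, 10.6 and 4.03. The macrophage nuclei were called by this same list, and the part of the calling rule in their lower values was not tested. Whether free RNA gave the counts in adipocyte, mural, ASPC and endothelial nuclei was not tested.

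By class, the KO levels of the sum ran from dendritic (2053 CPM) over B cell (946 CPM, 812 to 1097) and macrophage (882 CPM) to Schwann (314 CPM, 231 to 418), T and NK (306 CPM, 247 to 375) and endothelial nuclei (208 CPM), and ended with adipocyte, ASPC and mural nuclei. Neighbours whose intervals overlapped were B cell and macrophage, Schwann and T and NK, and adipocyte, ASPC and mural nuclei. In WT the order began with dendritic (1230 CPM) and B cell nuclei (786 CPM, 658 to 931), with macrophage nuclei (220 CPM) well below, and the other classes stood between 19.6 and 48.3 CPM, where the intervals of neighbours overlapped. B cell nuclei, 36 in WT and 53 in KO, had a log2 ratio of the sum of 0.27 (-0.06 to 0.60). Those of KO carried the macrophage list at 2425 CPM, against 581 CPM in WT, so the label of some of them is in doubt. Cd74 in B cell nuclei stood at 282 CPM in WT and 269 CPM in KO, whereas Ciita stood at 99.7 CPM (17 UMIs) and 301 CPM (56 UMIs), a log2 ratio of 1.60 (0.79 to 2.47).

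**Figure D3:**
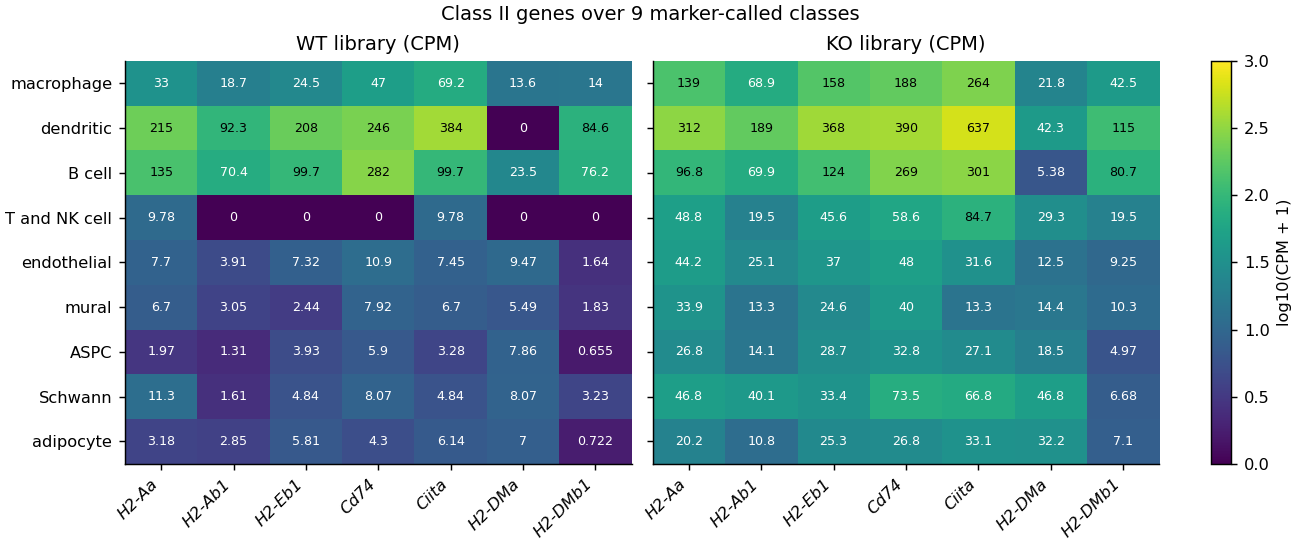
Levels of the 7 class II genes (columns) in 9 marker-called classes (rows) of the WT and KO library, printed in CPM and coloured by log10(CPM + 1) on a common scale from 0 to 3. Dendritic and B cell rows are bright in both panels, the macrophage row brightens from WT to KO, and H2-DMa has an adipocyte level of 32.2 CPM in KO against 21.8 CPM in macrophage nuclei.

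H2-DMa had a pattern unlike that of the other 6. Its level in KO was 32.2 CPM (29.9 to 34.6) in adipocyte and 21.8 CPM (19.4 to 24.3) in macrophage nuclei, and adipocyte nuclei held 39.6% of its KO UMIs against 9.38% to 11.1% for the other genes. In WT the order was the reverse, at 7.00 CPM (6.05 to 8.06) in adipocyte and 13.6 CPM (9.47 to 18.9) in macrophage nuclei. Adipocyte nuclei held 32.4% of its WT UMIs, against 11.9% to 24.8% for the other genes. Between libraries, H2-DMa in adipocyte nuclei stood at 7.00 and 32.2 CPM (log2 2.20, 1.97 to 2.43). Brd2, which overlaps it on the opposite strand, stood at 65.2 CPM in WT and 90.7 CPM in KO adipocyte nuclei, and at 57.9 and 68.4 CPM in macrophage nuclei. Over the 9 classes of both libraries (18 points, log2 of CPM + 1), the level of H2-DMa had a Pearson correlation of 0.32 with the sum of the 7 genes and ranked 2855 of 15157 genes with at least 200 UMIs. The other 6 ranked 1 to 6, with r from 0.97 to 0.98, though each is part of the sum. The points share 2 libraries and their depth.

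By the same measure, the genes outside the 7 whose levels ran most alike were Cnr2 (r = 0.96), March1 (0.94), Clec12a (0.94), Adgre4 (0.94) and Man2b1 (0.93). March1, a ubiquitin ligase that removes class II from the cell surface, stood at 535 CPM in WT and 502 CPM in KO macrophage nuclei at 646 and 777 CPM in dendritic nuclei and at 23.2 and 63.3 CPM in endothelial nuclei (log2 1.45, 1.15 to 1.74). Clec12a, a myeloid inhibitory lectin receptor, stood at 37.3 and 90.1 CPM in macrophage nuclei. Cnr2, the cannabinoid receptor of leukocytes, stood at 19.8 and 33.3 CPM there.

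Other genes of the presentation pathway were counted in the same way in macrophage nuclei, where 5.81% of all tested genes were at least 2-fold higher and 11.7% at least 2-fold lower in KO. Among 12 class I genes, 0 were at least 2-fold higher and 1 was lower, counts near those shares, with a median log2 ratio of -0.01. H2-K1, a class I heavy chain, stood at 149 CPM in WT and 147 CPM in KO (log2 -0.02, -0.18 to 0.14). H2-D1, another heavy chain, stood lower in KO, at 162 and 113 CPM (-0.51, -0.67 to -0.35). B2m, the class I light chain, stood at 166 and 193 CPM (0.22, 0.07 to 0.37). Nlrc5, the class I counterpart of CIITA, stood lower in KO, at 169 and 98.9 CPM (-0.77, -0.93 to -0.62), as did the immunoproteasome gene Psmb8 on 72 UMIs (-1.11, -1.88 to -0.28).

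Of 7 measured processing genes, none passed 2-fold in macrophage nuclei, which is near the shares of all genes (5.81% higher, 11.7% lower). Ctss, the cathepsin that trims the invariant chain in macrophages and dendritic cells, stood at 226 CPM in WT and 348 CPM in KO (log2 0.62, 0.50 to 0.75), while Ctsd, a lysosomal aspartic protease, stood at 145 and 99.0 CPM (-0.55, -0.72 to -0.38). Among 14 genes of class II transcription and interferon gamma signalling, 0 were at least 2-fold higher and 1, Irf4, was lower (35.0 and 12.6 CPM, log2 -1.48), also near those shares. Spi1, the myeloid factor PU.1, stood at 166 and 267 CPM (0.69, 0.54 to 0.84). Of the constitutive factors, 3 had intervals below 0: Rfxank had 7.77 and 3.96 CPM (-0.97, -1.73 to -0.16), Rfxap 12.4 and 6.66 CPM (-0.90, -1.49 to -0.28), and Nfyc 210 and 117 CPM (-0.84, -0.98 to -0.70). The intervals of the others included 0, with log2 ratios of -0.32 for Rfx5, -0.09 for Nfya, -0.33 for Nfyb and 0.06 for Creb1.

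**Figure D4:**
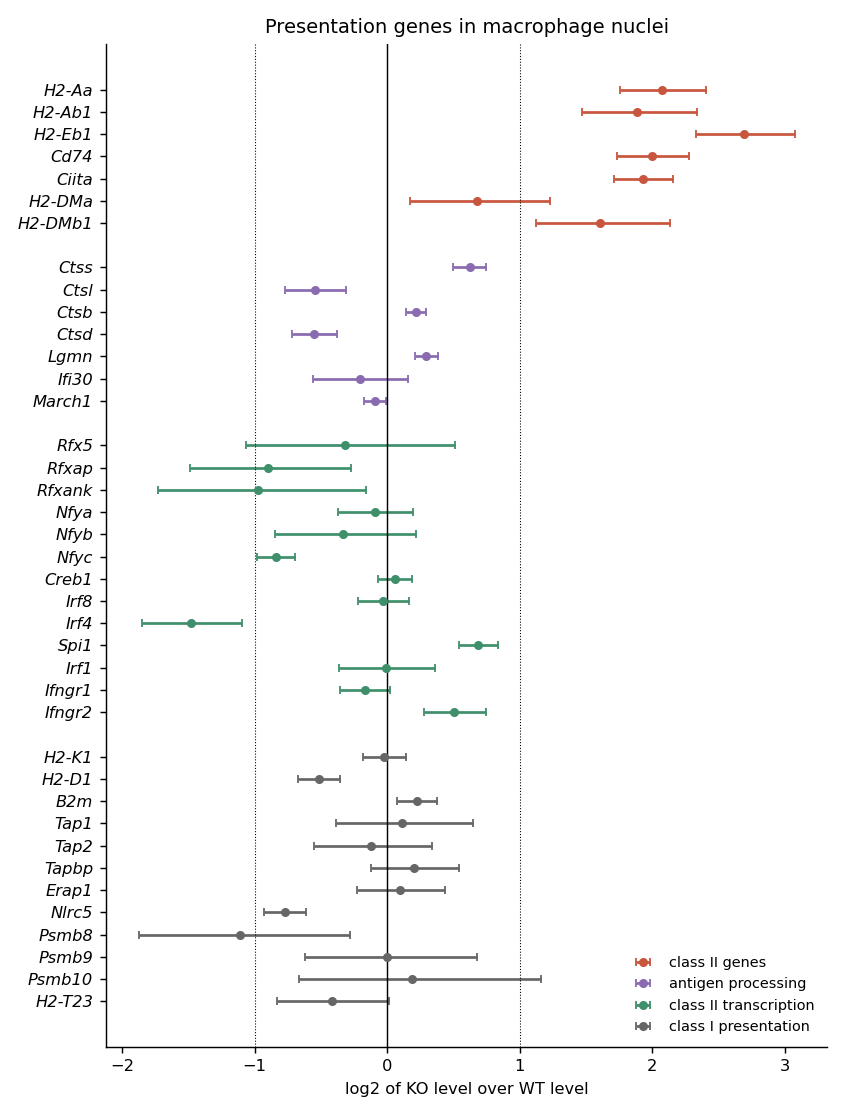
KO level over WT level in macrophage nuclei, on a log2 scale, for the class II genes and for genes of antigen processing, class II transcription and class I presentation with at least 50 UMIs, 1 transcription gene left out. Points are ratios, bars are exact 95% intervals for counting error, and dotted lines mark 2-fold. Of the class II genes 6 lie above the upper dotted line, and none of the processing, transcription or class I genes does.

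Costimulatory genes went both ways in macrophage nuclei. Cd86 stood at 101 CPM in WT and 233 CPM in KO (log2 1.20, 1.02 to 1.39), and Cd274, the inhibitory ligand PD-L1, at 36.5 and 16.3 CPM (-1.16, -1.51 to -0.80). Cd80 differed little (-0.03, -0.31 to 0.25). Cd1d1, which presents lipids to NKT cells, stood at 32.3 and 6.25 CPM (-2.37, -2.81 to -1.92). The other class II genes, H2-Oa, H2-Ob, H2-Eb2 and H2-DMb2, had 0 to 37 UMIs each per library in macrophage nuclei. Neither H2-Ea nor H2-Ea-ps was found among the symbols of the deposited gene lists. The level of H2-Eb1 is therefore given without that of a partner chain and does not show the level of the I-E molecule. In dendritic nuclei 2 of 9 class I genes were at least 2-fold higher and 1 lower, as were 1 and 2 of 8 transcription genes. Of all 4513 genes tested there, 16.3% were higher and 8.02% lower, and no result is read from counts this small. Spi1 stood at 108 and 230 CPM there (1.10, 0.32 to 1.99) and Cd86 stood at 169 and 393 CPM (1.22, 0.60 to 1.91). In endothelial nuclei none of 12 class I genes passed 2-fold (median 0.05), against 4.2% higher and 14% lower of all genes tested. Ctss stood there at 14.8 and 53.1 CPM (1.85), Spi1 at 8.08 and 23.9 CPM (1.56) and Cd86 at 6.94 and 27.2 CPM (1.97), genes that macrophages also express.

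Taking all kept nuclei as one, the class II sum was 49.7 CPM in WT and 404 CPM in KO, a log2 ratio of 3.02 (2.98 to 3.07). All 7 genes were at least 2-fold higher, against 22.7% of 18258 genes, whose median log2 ratio was 0.12, and 0 were at least 2-fold lower, against 18.1%. Macrophage nuclei held 14.4% of the class II UMIs in WT and 42.9% in KO, from 3.24% and 19.7% of all UMIs, and dendritic nuclei 4.06% and 7.21%. Nuclei of no class held 44.3% and 29.7%. If each class had kept its WT level and only the share of UMIs from each class had been that of KO, the sum would have been 91.7 CPM, a log2 ratio of 0.89. For H2-DMa this value was 0.17 and for Ciita 1.12, of totals of 1.74 and 3.21. Nuclei of no class were kept here as a class of their own, and their macrophage list stood at 357 CPM in WT and 1126 CPM in KO. A shift of cell types within them would enter as level, so 0.89 does not measure the whole part of cell shares.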

How the data were processed

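Counts were UMIs per gene and nucleus, 1 matrix per library, deposited by the authors without normalization. The authors aligned reads to GRCm38 with STAR in Cell Ranger. The methods and the submitters' notes name different versions (5.0.0 in the notes), and counting of introns is not stated. The 24341 barcodes deposited were filtered here: at least 200 genes, log UMIs and log genes within 3 median absolute deviations of the median, and at most 10% mitochondrial UMIs.

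A class needed at least 3 marker UMIs from 2 markers and a score of at least 0.2, where the score is the marker share of a nucleus over the mean of the 100 highest nuclei of at least 1000 UMIs, and the highest score decided. No doublet caller was run: 337 WT and 449 KO nuclei passed the minimum of more than 1 class. Levels were summed UMIs per 1000000, with exact Poisson intervals. Ratios had exact conditional binomial intervals, and shares Clopper-Pearson intervals. Nuclei are not replicates, so no test was made. The members and lists were chosen with earlier results of these data known. Named were the 7 members, Srsf1, markers, the 2 genes of each pathway list with the largest ratios or those a result turns on, and the 5 most alike genes. Brd2 was added as a neighbour of H2-DMa after values were seen. Ratios and intervals were tested on simulated data. The simulated counts were Poisson draws of class sums, so they cannot show how the intervals hold where UMIs gather in few nuclei. Python 3.11.15, numpy 2.4.6, scipy 1.17.1, pandas 2.3.3 and matplotlib 3.10.9 were used. Filters, class rules, scaling and single nuclei were varied. Values of some single list members are not reported here.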

Additional observations from a re-analysis of the deposited data

How the results depend on the processing

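The limits are those of 1 library per genotype: intervals cover counting error, and genotype cannot be told apart from library, dissection or mouse. No paired analysis was possible because each genotype has 1 library. Across 12 planned settings and 1 chosen after seeing the data (the nucleus with the most class II UMIs left out), the class II sum stayed above 0 in macrophage (log2 1.67 to 2.04), dendritic (0.54 to 0.89) and endothelial nuclei (1.42 to 2.35). In macrophage nuclei it left the interval of the reported value with classes by multinomial likelihood (1.67), without the 10% deepest nuclei (1.79) and as a mean over nuclei (1.84). In endothelial nuclei it did so when nuclei were kept between 500 and 5000 genes at up to 5% mitochondrial UMIs (1.72), by likelihood (2.35), without the deepest nuclei (1.42), as a mean over nuclei (1.65), with the adipocyte level subtracted (1.51) and without the nucleus with the most class II UMIs (1.75). Over all kept nuclei the moved values were 2.97 under those limits, 2.72 as a mean over nuclei and 2.90 centred on the median ratio. The causes were not tested. The KO to WT ratios of the shares of macrophage and dendritic nuclei stayed within their intervals under each of 7 settings. The numbers of nuclei called moved more. Macrophage nuclei numbered 331 in WT and 1860 in KO with the higher minimum of marker UMIs, and 773 and 3662 by likelihood, against 501 and 2600. Of single-gene ratios, 90 of 90 values in macrophage, 78 of 78 in dendritic and 88 of 89 in endothelial nuclei were above 0, and the remaining one was H2-DMa in endothelial nuclei (-0.07). With the adipocyte level subtracted, no ratio could be formed for H2-DMa in the 3 classes or for Ciita in endothelial nuclei. The minimum of UMIs moved the number of genes at least 2-fold higher in KO macrophage nuclei from 712 to 361 at 200 UMIs, in dendritic nuclei from 735 to 1429 at 20 and 193 at 200 UMIs, and in endothelial nuclei from 488 to 756 and 219. Genes at least 2-fold lower went from 1437 to 619 at 200 UMIs in macrophage, from 362 to 908 at 20 and 87 at 200 in dendritic, and from 1628 to 741 at 200 in endothelial nuclei. The WT dendritic level rests on 160 class II UMIs in 25 nuclei.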
